A study of Mus musculus with 12 samples.

Results

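Gene promoters that were more accessible in CD8+ T cell progenitors lacking the histone demethylase UTX are described here, with the expression of their genes. The peaks were chosen by measured values. They are the ATAC-seq peaks that HOMER placed at a promoter in the deposited list of differences between the genotypes, and whose mean concentration was higher in UTX TCD than in WT cells. Of the 2621 promoter peaks in the list, 2235 (85.3%) met this rule, which was 9.34% of all 23932 listed peaks. The list held only peaks with an FDR of at most 0.05 in the authors' comparison, so that the direction of each peak was a condition for its choice and is not a result.

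Open chromatin was measured by ATAC-seq, in which a transposase cuts accessible DNA, and RNA by RNA-seq, each with 3 libraries per genotype. The cells were CD8+ T progenitors sorted from the pancreatic lymph nodes of female nonobese diabetic (NOD) mice. Every mouse carried the *NOD-TCR 8.3* transgenes, which give T cells a receptor for the β cell antigen IGRP. UTX TCD mice were *UTX fl/fl* with a *Lck-Cre* transgene, in which the *Lck* promoter drives Cre in T cells, and both had been backcrossed from B6 to NOD. WT controls were littermates without Cre. The sort gate is given as Ly108+CXCR6- in the labels and as Ly108+CD39- in the paper, no treatment was given, and the age of the mice for these assays is not stated. Reads assigned to genes numbered 146456724, 144503203 and 193568919 for the WT and 61512402, 175462433 and 187275082 for the UTX TCD RNA-seq libraries, so that UTX TCD replicate 1 was the shallowest. A floor of 3 reads corresponded to a normalized count between 2.21 and 6.75, depending on the library, and covers counting error only.

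A promoter is the stretch of DNA around a transcription start where RNA polymerase is loaded, and most active promoters are held free of nucleosomes. Many promoters of mammals lie in CpG islands, and in T cells a large class of these, the genes of embryonic patterning and of other tissues, is kept silent by Polycomb complexes that methylate histone H3. UTX removes such methyl groups and also acts, apart from that activity, within a complex that methylates enhancers.

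*Kdm6a*, which encodes UTX, had normalized counts of 28365, 28949 and 29172 in the WT and 24158, 24792 and 24579 in the UTX TCD libraries. All 3 UTX TCD values were below all 3 WT values, by a log2 fold change of -0.23 ± 0.04 (SE). Reads were counted over the whole gene, so that these values do not check the deleted part, and no promoter peak of *Kdm6a* was among the opened ones. *Cd8a* stood at 272448, 270012 and 274004 in WT and at 311527, 313000 and 270975 in UTX TCD cells. Its partner chain *Cd8b1* was lower in all 3, at 148808, 138851 and 136749 against 121688, 111349 and 95740 (-0.37, adjusted p = 0.00634), below the fold limit, and *Tcf7*, a defining factor of T progenitors, overlapped between the groups, with 227810 to 244276 and 220872 to 229604. *Cxcr6*, whose protein the gate given in the labels excludes, stood at 12757, 9619 and 13724 in WT and at 5286, 5994 and 5695 in UTX TCD cells (-1.07, adjusted p = 0.000131).

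Genes of other cell types were also read. The 3 B cell markers summed to 446.8, 502.5 and 324.9 normalized counts in the WT and 569.1, 449.2 and 519.7 in the UTX TCD libraries, most of it *Cd79a*. Among them *Ms4a1* was called higher, with 5.94, 19.8 and 8.39 in WT and 20.2, 29.6 and 73.0 in the UTX TCD libraries (1.72, adjusted p = 0.0367), a call lost without WT replicate 1 (1.38) or 3 (1.60) or UTX TCD replicate 2 (1.84) or 3 (1.21). *Cd4* was called lower, from 90.1, 104 and 83.1 to 58.5, 68.1 and 41.3 (-0.74, adjusted p = 0.0384), a call lost without WT replicate 1 (-0.75), 2 (-0.65) or 3 (-0.81) or UTX TCD replicate 1 (-0.78) or 3 (-0.54), with DESeq2 (adjusted p = 0.0573), with libraries scaled to the same sum (-0.67, adjusted p = 0.0543) and without the filter (adjusted p = 0.0673). The 3 myeloid markers summed to 601 to 783 and 782 to 1028, most of it *Cd68*, which itself had an opened promoter peak, whereas *Csf1r* stood at 19.1 to 27.7 in WT and 4.50 to 8.11 in UTX TCD cells and was called lower (-1.85, adjusted p = 0.00496), having passed the filter through the WT group alone. Of the endothelial markers *Cdh5* stood at 24.8, 21.7 and 9.91 in WT and at 0 in all 3 UTX TCD libraries, while *Pecam1* was at 29365 to 31327 and 33068 to 37236. The 3 stroma markers summed to 917.3, 545 and 971.6 in the WT and 1001, 984.1 and 1001 in the UTX TCD libraries. Of the epithelial and pancreatic markers *Epcam* was called higher, from 360, 392 and 381 to 751, 617 and 800 (0.93, adjusted p = 0.000367). *Krt18*, which had an opened promoter peak, went from 1.98, 1.98 and 0 to 4.50, 5.60 and 10.3 and was not tested. *Ins2* of β cells was at 0 in all 6 libraries, and *Snap25*, *Syt1* and *Gfap* of neurons and glia together reached 2.96 to 5.94 in WT and 4.00 to 12.5 in UTX TCD cells. Fewer cells of a type and less RNA per cell cannot be told apart in these bulk samples, and the part of such cells in the values below was not tested.

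Accessibility is given as the mean log2 concentration of a peak, which is the log2 of the normalized reads averaged over a genotype's libraries, and the gain is the UTX TCD value minus the WT value. The opened promoter peaks started from 2.31 to 12.50 in WT cells, with a median of 8.16 and quartiles of 6.38 and 9.58. In UTX TCD cells they reached 5.57 to 14.74, with a median of 8.92. The 386 promoter peaks that closed had started higher, with a median of 10.18, and the 14231 opened peaks outside promoters lower, with a median of 7.31. Gains ran from 0.19 to 4.30 with a median of 0.71, and 774 peaks (34.6%) rose more than 2-fold and 177 (7.92%) more than 4-fold. Among the closed promoter peaks the median change was -0.37, and 33 (8.55%) fell more than 2-fold. Peaks that started lower gained more, with Pearson r of -0.81 across 2235 peaks, a description only, since the starting value enters both quantities and small gains of faint peaks do not reach the limit of the list. The median gain was 2.58 for the 52 peaks that started at 4 or less, 1.61 for the 409 between 4 and 6, 0.97 for the 592 between 6 and 8, 0.49 for the 782 between 8 and 10, and 0.31 for the 400 above 10.

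No promoter peak of the list lay close to a gain of 0, since the list holds only peaks that differed. The 5 members nearest to it were at *Abcc1* (gain 0.19, from 10.92 to 11.11), *6720489N17Rik* (0.20, from 10.58), *Sh3d21* (0.20, from 10.97), *Dlg4* (0.20, from 10.86) and *Bckdk* (0.21, from 10.13). On the other side were *Wdcp* (-0.19, from 11.03), *Cdkn2c* (-0.19, from 10.88), *Atp10d* (-0.19, from 10.85), *Atg4d* (-0.19, from 11.05) and *Wfs1* (-0.19, from 12.04). All 10 of these promoters were already highly accessible in WT cells.

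The opened peaks sat close to transcription starts, with a median position of -45 bp and 68.5% of centres within 100 bp of the annotated start. Centres lay upstream of the start in 73.0% of peaks, and positions ran from -983 to 893 bp. The 2235 peaks named 2186 genes, of which 2138 had 1 opened promoter peak, 47 had 2 and 1 had 3, and 5 genes also had a promoter peak that closed. A peak names only the gene with the nearest promoter, so a gene on the other side of a shared promoter is not counted. Of the peaks, 2093 named protein-coding genes and 133 noncoding RNAs. Opened promoters lay on the X chromosome (80 of 91) and on every autosome, and the share that opened ran from 78.9% on chromosome 17 to 91.5% on chromosome 8.

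*Trim2*, a ubiquitin ligase best known from neurons, was the gene with 3 opened promoter peaks. They lay at chr3:84220715-84221115, chr3:84259635-84260035 and chr3:84305182-84305582 and rose from 6.33 to 7.72, from 9.95 to 10.74 and from 4.93 to 7.71. *Trim2* RNA stood at 305, 366 and 357 in WT and at 724, 759 and 875 in UTX TCD libraries (log2 fold change 1.20 ± 0.12, adjusted p = 8.29e-05), without overlap. *Rnf144b*, also a ubiquitin ligase, had a start that was already open (8.88 to 9.56) and a second one that was nearly closed in WT cells (3.37 to 6.71), and its RNA went from 72.3 to 103 in WT to 117 to 134 in UTX TCD cells, a difference that did not pass the test (0.48 ± 0.20, adjusted p = 0.0837). Both peaks of *Ebf2*, a transcription factor of fat and neurons, opened, by 2.70 and 1.98, and the gene had no more than 3 reads in any library. *Mid2*, a microtubule-associated ubiquitin ligase on the X chromosome, had peaks that gained 2.70 and 2.38. Its counts of 5.94, 0.987 and 0 in WT rose to 13.5, 32.0 and 23.6 in UTX TCD cells (3.25 ± 0.73, adjusted p = 0.0069), and the fold change was 4.01 without WT replicate 1 and 2.61 without WT replicate 3. The WT mean of *Mid2* was under the filter, so that it was tested only because it was higher in UTX TCD cells.

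The 12 largest gains were at promoters that started at 5.85 or less in WT cells, and 10 of these genes were either too low to be tested or not called in RNA. The promoter of *Gabrb2*, a neurotransmitter receptor subunit, rose from 2.37 to 6.03, while its counts of 0.991, 9.87 and 2.29 in WT overlapped those of 11.2, 11.2 and 1.47 in UTX TCD cells. The peak of *Nr3c2*, the mineralocorticoid receptor, rose from 5.85 to 9.92, and its RNA from 11.9, 11.9 and 6.86 to 92.2, 65.7 and 98.0 (2.96 ± 0.32, adjusted p = 0.000135). *Six3*, a homeobox factor of the forebrain and eye, rose from 2.93 to 7.15 in accessibility, with counts of 3.96, 4.94 and 9.15 in WT and 13.5, 15.2 and 8.85 in the UTX TCD libraries, too low to be tested. *Nr3c2* RNA was above all WT libraries in all 3 UTX TCD libraries, whereas the values of *Six3* and *Gabrb2* overlapped.

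Of the other large gains, *Pax2*, a kidney and inner ear factor, opened from 2.95 to 6.24, *1700121N20Rik* from 4.40 to 7.83, *4930488L21Rik* from 4.48 to 7.79, *Plaat5* from 2.61 to 5.97 and *Amotl2* from 3.07 to 6.75. None of these 5 genes had a normalized count over 7.90 in any library, and *1700121N20Rik* had no read at all. *Pde11a*, a cyclic nucleotide phosphodiesterase, gained 3.43 at its promoter, yet its counts were 409, 330 and 385 in WT and 326, 291 and 248 in the UTX TCD libraries. All 3 UTX TCD values were below those of WT, a difference that did not pass the test (-0.38 ± 0.15, adjusted p = 0.0662). The peak of *Ctbp2*, a corepressor with a synaptic isoform from its own start, rose from 3.44 to 6.71, with counts of 124, 144 and 111 in WT and 205, 166 and 92.1 in the UTX TCD libraries. These overlapped, and reads of the different isoforms were not separated.

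The stretches below show 2 of these promoters and that of *Wnt3*, for the spread of CpG dinucleotides, which are in capitals. Each is the part of the peak upstream of the annotated start, at most 200 bases, read 5′ to 3′ on the gene's strand from the RefSeq genome in GRCm38/mm10, which is of the strain C57BL/6J and not NOD. *Six3* (chr17:85620634-85620833, plus strand) held 9 CpGs, *Nr3c2* (chr8:76902130-76902329, plus strand) 13 and *Wnt3* (chr11:103773975-103774174, plus strand) 16.
Six3: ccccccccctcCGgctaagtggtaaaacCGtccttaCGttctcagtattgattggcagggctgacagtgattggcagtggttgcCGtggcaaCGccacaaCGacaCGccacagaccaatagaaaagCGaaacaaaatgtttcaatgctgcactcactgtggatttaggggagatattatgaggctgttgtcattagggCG
Nr3c2: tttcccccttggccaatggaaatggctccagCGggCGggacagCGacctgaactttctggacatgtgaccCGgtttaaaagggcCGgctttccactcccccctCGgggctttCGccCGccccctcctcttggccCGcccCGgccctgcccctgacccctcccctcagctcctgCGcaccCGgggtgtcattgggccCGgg
Wnt3: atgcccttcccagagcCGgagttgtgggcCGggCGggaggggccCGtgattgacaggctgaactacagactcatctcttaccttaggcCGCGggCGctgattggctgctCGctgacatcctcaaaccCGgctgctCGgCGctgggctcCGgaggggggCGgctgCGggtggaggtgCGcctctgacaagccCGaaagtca

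At the other end were promoters that were wide open before. *Pcx* (pyruvate carboxylase) started highest, at 12.50, followed by *Dnajc14* at 11.97, *Lck* at 11.96, *Tssc4* at 11.83 and *Ccnt1* at 11.80, and all but *Lck* gained between 0.28 and 0.35. The RNA of *Pcx* was 451, 298 and 460 in WT and 547, 576 and 475 in the UTX TCD libraries, and none of the 5 genes was called. *Lck*, the kinase that first acts on the T cell receptor, stood apart. Its peak at chr4:129558512-129558912 rose by 2.79, from 11.96 to 14.74, the highest value of any opened promoter in UTX TCD cells. *Lck* RNA was 176303, 168825 and 180892 in WT and 156546, 159703 and 151489 in the UTX TCD libraries, slightly lower in all 3 and below the fold limit of a call (-0.17 ± 0.05). Only the UTX TCD mice carry the *Lck-Cre* transgene, whose part of the *Lck* promoter is not stated, and reads from its copy of the *Lck* promoter and from the gene's own promoter cannot be told apart in these values.

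For the RNA of the member genes, a gene whose normalized count averaged 10 or more across the 6 libraries was tested with limma on log2(normalized count + 1), a scale that understates the changes of low genes, and p-values were adjusted over all 14459 genes tested. They measure only the spread between these samples, and an exact permutation test of 3 against 3 could not go below 0.10. A gene was called at an adjusted p under 0.05 and a log2 fold change over 0.5 in size. Of the 2186 genes, 2123 were in the RNA-seq table and 63 were not. Of those listed, 85 had no read in any library, 280, those included, had at most 3 reads in every library, a further 481 fell under the filter, and 1362 were tested. Among the tested genes 500 (36.7%) were higher and 49 (3.60%) were lower in UTX TCD cells, together 549, while over all genes tested 10.5% were called higher, 7.05% lower and 17.6% either way. The tested genes include 91 whose WT mean was under the filter, 53 of them called higher, and these had to be higher in UTX TCD cells to be tested. A further 18 passed through the WT group alone, 7 of them called lower. All 3 UTX TCD libraries lay above all 3 WT libraries for 692 of the tested genes (50.8%), against 25.8% of all genes tested. The median log2 fold change was 0.38, against 0.00 for all genes tested, and it was 0.38 also with the genes at 0 in one group, such as *Procr*, at their bounds. For genes with a closed promoter peak the same counts were 335 tested, 10 higher and 121 lower, with a median of -0.26.

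Starting accessibility and RNA went together. Of the listed genes whose peak started at 4 or less, 22 of 48 (45.8%) had at most 3 reads in every library and 9 were tested. The share with at most 3 reads was 26.3% from 4 to 6, 20.2% from 6 to 8, 5.50% from 8 to 10 and 0.521% above 10, where 362 of 384 listed genes were tested. Among the tested genes, 6 of 9 were called higher at a start of 4 or less, 56 of 135 from 4 to 6, 107 of 265 from 6 to 8, 239 of 591 from 8 to 10 and 92 of 362 above 10. By size of gain, 184 of 681 tested genes (27.0%) were called higher at a gain of up to 0.5, 171 of 381 (44.9%) from 0.5 to 1, 116 of 247 (47%) from 1 to 2 and 29 of 53 (54.7%) above 2. The median log2 fold changes in these 4 bins were 0.19, 0.54, 0.82 and 1.11. These shares and medians include genes tested only through the UTX TCD group, which had to be higher, 15, 29, 40 and 7 in the 4 bins, with 9, 13, 25 and 6 of the calls. By start they held 2, 11, 13, 26 and 1 of the calls, so the order of the bins is not read as a trend. Genes called lower in the 4 bins of gain were 24, 10, 13 and 2. Genes are not independent replicates, and faint promoters contribute few tested genes. At the large gains little RNA was found on either side for most genes, and 116 of the 169 listed genes with a gain above 2 were not tested, 49 of them with at most 3 reads in every library.

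Other peaks near the same genes opened too. Of the 2186 genes, 1133 also had listed peaks outside promoters, 2704 in all, and 86.5% of these opened, against 66.8% of all peaks outside promoters. For 928 genes every such peak opened, for 133 the directions were mixed and for 72 every such peak closed. Around genes with a closed promoter peak, 25.5% of 769 such peaks opened. These shares come from the same comparison as the choice of the promoters and are a description.

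The largest increase in RNA was in *Nrep*, a small protein of nerve regeneration and matrix remodelling. It stood at 2.97, 2.96 and 3.05 in WT and at 104, 112 and 181 in UTX TCD cells (log2 fold change 5.01 ± 0.33, adjusted p = 8.16e-06), with a peak at the start that rose from 8.03 to 9.93. *Rnf43*, a ubiquitin ligase that removes Wnt receptors from the cell surface, went from 677, 531 and 545 to 7083, 7266 and 8139 (3.69 ± 0.10, adjusted p = 4.48e-08), while its promoter peak, already open at 9.65, gained 0.68. The Wnt ligand *Wnt10a* went from 20.8, 14.8 and 23.6 to 229, 215 and 305 (3.60 ± 0.25, adjusted p = 1.06e-05) with a gain of 0.76. These and the following genes were the largest increases with no overlap between groups, which was a condition of the choice and is not a result. *Gucy1b1* and *Gucy1a1* encode the subunits of soluble guanylate cyclase, the receptor of nitric oxide, from promoters that started 70971 bp apart and gained 1.59 and 0.94. *Gucy1b1* stood at 104, 462 and 96.1 in WT and 2776, 2763 and 3818 in the UTX TCD libraries (4.20 ± 0.51, adjusted p = 0.000236), and *Gucy1a1* at 139, 888 and 153 and 3079, 3439 and 3397 (3.63 ± 0.59, adjusted p = 0.00123). WT replicate 2 was the highest WT library for both, and without it the fold changes were 4.93 and 4.50. *Ramp2*, an accessory protein of calcitonin-family receptors, went from 0.991, 6.91 and 0 to 47.2, 28.8 and 25.8 (3.75 ± 0.73, adjusted p = 0.00323), or 4.58 without WT replicate 2 and 3.09 without WT replicate 3. *Ier5l*, a paralog of an immediate early gene, went from 1.98, 1.98 and 1.53 to 36.0, 31.2 and 33.9 (3.62 ± 0.39, adjusted p = 0.000118). *Nrep*, *Ramp2* and *Ier5l* had WT means under the filter and were tested only because they were higher in UTX TCD cells.

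Another 49 genes had an opened promoter and were called lower. The 8 given here fell most among those whose groups did not overlap, a condition of the choice. *Nrp2*, a coreceptor for semaphorins and VEGF, stood at 4781, 4595 and 4733 in WT and 891, 910 and 970 in the UTX TCD libraries (-2.35 ± 0.06, adjusted p = 3.98e-08), while its promoter peak rose from 8.01 to 9.20. *Abcb9*, a lysosomal peptide transporter, fell from 2379, 2245 and 2670 to 533, 554 and 662 (-2.06 ± 0.11, adjusted p = 1.87e-06) with a gain of 0.86. Both had 3 UTX TCD values far below the WT values. *Slc4a4*, a sodium bicarbonate cotransporter, gained 1.41 at its promoter and fell from 89.1, 36.5 and 69.4 to 2.25, 8.81 and 5.90 (-3.36 ± 0.50, adjusted p = 0.000804). *Procr*, the endothelial receptor of protein C, gained 1.68, with 132, 1.98 and 103 in WT and 0 in all 3 UTX TCD libraries, at least 20.8-fold lower against a floor of 3 reads per library (adjusted p = 0.0113). WT replicate 2 was near 0, like the UTX TCD libraries, and the fitted log2 fold change of -5.11 was -6.88 without it, -4.14 without WT replicate 1 and -4.31 without WT replicate 3. *Slc4a4* and *Procr* passed the filter through the WT group alone, and the endothelial marker *Cdh5* above was likewise at 0 in all 3 UTX TCD libraries. *Hspa12a* (gain 0.37), a distant relative of the heat shock proteins that also had a closed promoter peak, fell from 112, 91.8 and 126 to at most 20.6, or 3, 4 and 28 reads (-3.63 ± 0.53, adjusted p = 0.000737), or -4.27 without UTX TCD replicate 3. The other 3 were *Soat2* of cholesterol esterification (-2.94 ± 0.44, adjusted p = 0.000856), the water and glycerol channel *Aqp9* (-2.87 ± 0.31, adjusted p = 0.000122) and the glycosyltransferase *B3galt5* (-2.43 ± 0.39, adjusted p = 0.00111), all with gains of 0.38 to 0.51.

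A sharper group is the genes that went from at most 3 reads in every WT library to more than 3 in every UTX TCD library. There were 18 among the 2123 listed genes (0.848%), against 73 of all 25860 genes (0.282%), and 9 went the other way (0.424%), against 100 (0.387%). Only 3 of the 18 had a mean count high enough to be tested, among them *Ier5l* and *Dok7*, an adaptor of the neuromuscular junction. *Dok7* went from 2.97, 2.96 and 0 to 31.5, 28.8 and 22.9 (3.51 with adjusted p = 0.00175, and 2.84 without WT replicate 3). These genes were tested only because they were higher in UTX TCD cells, which was also the condition of the group. Others, named after their values were seen, were *Olfm1*, a secreted neuronal glycoprotein, with 0 in the WT and 13.5, 12.8 and 21.4 in the UTX TCD libraries, and *Hspg2* (perlecan), with 1.98, 1.98 and 0 against 27.0, 9.61 and 17.0. In the opposite group was *Gstt1*, a glutathione transferase, with 18.8, 10.9 and 15.3 against 0, 1.60 and 1.47. These counts are a few reads per library, and UTX TCD replicate 1 had the highest floor.

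Homeobox and other developmental transcription factors had the largest number of opened promoters of any list, though not the largest share. Of 247 such genes 67 (27.1%) had one, against 8.21% of all genes in the RNA-seq table, with a median start of 6.35 and a median gain of 1.38. Of the 67, 26 had no more than 3 reads in any library, against 31.0% of all genes, and 9 were tested, of which 3 were called higher and 1 lower, with 1 of the 3 tested only through the UTX TCD group and the 1 only through the WT group, and the median log2 fold change was 0.35. After *Six3* and *Pax2* the largest gains were at *Evx1* (2.99 to 6.15) and *Gata2* (3.88 to 6.89), a factor of blood stem cells and mast cells. *Evx1* and *Gata2* each had 1 read in WT replicate 1 and none in the other WT libraries, and 1 and 4 reads in UTX TCD replicates 1 and 2. Over the whole list 35 genes were tested, with 9 higher and 4 lower. The list includes *Tbx21*, an effector factor of T cells given below, which was 1 of the 3 members called higher.

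Ligands, receptors and secreted inhibitors of Wnt signalling had an opened promoter in 19 of 58 cases (32.8%), with a median start of 6.95 and gain of 1.10. The 9 that were tested were called higher, with a median log2 fold change of 2.22, but *Fzd10* had a WT mean under the filter and had to be higher to be tested, and over the whole list 10 of 24 were higher and 2 lower. The adjacent ligand genes *Wnt9b* and *Wnt3*, whose peaks started 24258 bp apart, opened from 3.67 to 6.50 and from 6.95 to 9.11. *Wnt3* RNA went from 13.9, 10.9 and 22.9 to 126, 131 and 181 (3.17 ± 0.31, adjusted p = 7.73e-05), whereas *Wnt9b* had 0, 0.987 and 0 in WT and 6.75, 4.80 and 0 in the UTX TCD libraries. Thus only *Wnt3* of this pair was above WT in all 3 libraries. The receptor *Fzd2* (4.46 to 6.98) and the secreted inhibitor *Frzb* (4.82 to 7.51) had large gains and at most 4 reads in any library. The other members called higher, named after their values were seen, were the inhibitor *Sfrp2*, the receptors *Fzd10*, *Fzd3* and *Fzd6*, the coreceptor *Lrp5*, *Lgr4*, and *Wnt10a* and *Rnf43* above. *Sfrp2* stood at 67.4, 146 and 51.1 in WT and 394, 312 and 426 in the UTX TCD libraries (2.22, adjusted p = 0.000944), and *Lgr4* at 64.4, 57.3 and 83.1 and 128, 159 and 127 (1.02, adjusted p = 0.00465). The calls of *Fzd3* (1.13) and *Fzd6* (1.19) were lost without WT replicate 1 (1.04 with adjusted p = 0.0638 and 1.15 with adjusted p = 0.074), and that of *Fzd6* also without WT replicate 2 (1.03), UTX TCD replicate 2 (1.18) or UTX TCD replicate 3 (1.01).

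Inside the cell, 9 of 39 genes of the Wnt pathway and its targets (23.1%) had an opened promoter and 2 of the 8 tested were higher, 1 of them tested only through the UTX TCD group, with a median of 0.20, against 3 higher and 3 lower of 34 in the list. Besides *Ctbp2*, the largest gains were at *Dixdc1* (5.99 to 8.42), *Sp5* (6.01 to 7.76) and *Apc* (8.16 to 8.96). *Dixdc1* (118, 122 and 121 against 108, 88.1 and 121) and the β-catenin destruction scaffold *Apc* (29328 to 30381 against 29732 to 30429) overlapped between the groups, and *Sp5* had no read in any library.

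Interferon-stimulated genes had an opened promoter in 11 of 50 cases (22.0%) and started high, at a median of 9.66 with a median gain of 0.51. All 11 were tested, and 10 were called higher, with a median log2 fold change of 1.99, while over the list 34 of 49 were higher and none was lower. *Oas1a*, a sensor of double-stranded RNA, had the lowest start (4.33) and the largest gain (2.18), and its RNA went from 248, 237 and 250 to 1759, 1760 and 2117 (2.93 ± 0.10, adjusted p = 1.83e-07). *Mx1*, an antiviral GTPase, gained 1.06 and went from 2231, 1886 and 2316 to 20089, 21094 and 15949 (3.15 ± 0.11, adjusted p = 1.83e-07). *Eif2ak2*, the kinase that halts translation on double-stranded RNA, gained 0.74 and went from 3216, 2882 and 3335 to 10892, 11328 and 8918 (1.72 ± 0.09, adjusted p = 2.53e-06). For each of these 3 genes every UTX TCD library was far above every WT library. *Rtp4*, with peaks at its start and at position -892 bp, went from 10295, 8078 and 10118 to 20191, 19603 and 16797 (0.99 ± 0.10, adjusted p = 8.35e-05). The others higher were *Ifit1*, *Mx2*, *Oas2*, *Rsad2*, *Cmpk2* and *Xaf1*, between 1.15 and 3.08, and *Ifi27* was not called (9398, 9649 and 8771 against 9778, 8748 and 10157). *Oas* and *Mx* genes have close paralogs, so reads may be shared among them. *Rsad2* and *Cmpk2* are neighbours with starts on opposite strands.

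The letters GAAANNGAA, found in sites of interferon regulatory factors, occurred on either strand in 8 of the 12 opened promoter peaks of these 11 genes (66.7%), against 8.23% of all opened promoter peaks and 10.7% of windows of the same length at 32817 RefSeq starts. A match is a description of the letters and not a measured binding site. Genes of the same list without an opened promoter were not compared, so the share describes this list and is not tied to opening. The stretches of 4 of these promoters upstream of the annotated start follow, at most 200 bases of the peak in GRCm38/mm10 on the gene's strand, with the matches in capitals. *Oas1a* (chr5:120907526-120907725, minus strand) held 2 overlapping matches next to its start, *Rtp4* (chr16:23609719-23609918, plus strand) 4, *Ifit1* (chr19:34640689-34640888, plus strand) 3 on the opposite strand and *Rsad2* (chr12:26456453-26456652, minus strand) 1 on the opposite strand.
Oas1a: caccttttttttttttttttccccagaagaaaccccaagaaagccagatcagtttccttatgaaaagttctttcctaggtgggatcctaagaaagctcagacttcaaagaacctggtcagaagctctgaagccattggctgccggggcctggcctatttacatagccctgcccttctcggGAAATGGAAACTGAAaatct
Rtp4: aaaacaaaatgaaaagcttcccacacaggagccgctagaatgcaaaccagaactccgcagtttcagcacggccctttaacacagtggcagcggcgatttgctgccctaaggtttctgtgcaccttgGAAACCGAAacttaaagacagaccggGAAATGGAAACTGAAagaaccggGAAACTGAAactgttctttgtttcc
Ifit1: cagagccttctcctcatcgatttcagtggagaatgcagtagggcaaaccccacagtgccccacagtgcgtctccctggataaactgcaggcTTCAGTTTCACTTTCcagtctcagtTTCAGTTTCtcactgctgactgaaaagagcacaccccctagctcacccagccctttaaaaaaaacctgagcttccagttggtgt
Rsad2: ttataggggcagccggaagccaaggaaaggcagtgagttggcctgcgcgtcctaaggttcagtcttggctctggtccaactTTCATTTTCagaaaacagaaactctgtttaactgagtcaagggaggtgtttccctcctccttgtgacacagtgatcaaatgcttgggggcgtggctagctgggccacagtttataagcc

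Clustered protocadherins, adhesion proteins that give neurons their identity, had an opened promoter in 13 of 58 cases (22.4%), 12 of them in the γ cluster. All 12 were tested and called higher, with a median log2 fold change of 1.93, as were all 22 tested in the list, with 1.79. *Pcdhga4* rose from 4.15 to 5.99 in accessibility and from 18.8, 13.8 and 7.63 to 130, 135 and 136 in RNA (3.30 ± 0.33, adjusted p = 7.65e-05). *Pcdhga2* rose from 4.90 to 7.05 and from 18.8, 10.9 and 11.4 to 117, 96.9 and 129 (3.00 ± 0.29, adjusted p = 6.87e-05). *Pcdhga7* (6.42 to 8.50) and *Pcdhga8* (5.09 to 6.92) had log2 fold changes of 2.13 ± 0.35 and 1.88 ± 0.21. No UTX TCD library of these 4 genes was as low as any WT library. These genes share their last exons, so how reads were split among them is uncertain and the 12 are not independent. *Pcdhga5* (2.25) was at 1.57 without WT replicate 2. *Pcdhga6* (1.98) was at 1.10 without WT replicate 2 and 2.58 without WT replicate 3, and its call was lost without WT replicate 1 (2.26) or without UTX TCD replicate 1 (1.99), 2 (1.92) or 3 (2.04), and without the filter (adjusted p = 0.0511). *Pcdhb1* opened from a start of 4.11 and had no read.

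Voltage- and ligand-gated ion channels had an opened promoter in 47 of 229 cases (20.5%), with a median gain of 1.42, and of 20 tested 8 were higher, 1 of them tested only through the UTX TCD group, and 1 was lower, with a median of 0.40, against 22 higher and 7 lower of 91 in the list. Large gains were at the potassium channel subunit *Kcns2* (3.60 to 6.37), with no read in any library, and the sodium channel subunit *Scn3b* (5.19 to 7.73). *Scn3b* stood at 24.8, 19.8 and 25.2 in WT and at 15.8, 14.4 and 30.2 in UTX TCD cells, with overlap. Synaptic and adhesion genes of neurons were similar, with 32 of 143 (22.4%), a median gain of 1.27 and 8 of 17 tested higher, 2 of them tested only through the UTX TCD group, and none lower, against 22 higher and 5 lower of 58 in the list. *Ntng1*, *Lgi3*, *Map6* and *Cntn1* had the largest gains (2.01 or more), and none of the 4 exceeded a count of 13.6 in any library.

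Genes of the extracellular matrix and secreted growth factors had an opened promoter in 40 of 202 cases (19.8%), with the lowest median start of the lists with more than 5 members (5.94) and a median gain of 1.65. Of 22 tested, 9 were higher, 2 of them, *Nbl1* included, tested only through the UTX TCD group, and 2 lower, against 21 higher and 11 lower of 86 in the list. *Loxl4*, a lysyl oxidase, opened from 4.10 to 7.25, with counts of 145, 107 and 114 in WT and 117, 108 and 134 in the UTX TCD libraries. *Megf11*, a cell surface protein with EGF-like repeats, opened from 4.61 to 7.05 and fell from 383, 285 and 329 in WT to 256, 207 and 205 in UTX TCD cells (-0.57 ± 0.16, adjusted p = 0.0188), a call that was lost without WT replicate 1 (-0.46), WT replicate 3 (-0.57) or UTX TCD replicate 2 (-0.52). *Nbl1*, a BMP antagonist, opened from 5.12 to 7.69 and rose from 8.92, 2.96 and 13.7 to 18, 24.8 and 26.5 (1.52 ± 0.52, adjusted p = 0.0428), and its call was lost without WT replicate 1 (1.64) or 2 (0.98) or UTX TCD replicate 1 (1.68), 2 (1.46) or 3 (1.41), with DESeq2 (1.44, adjusted p = 0.0917) and without the filter (adjusted p = 0.0584). *Serpinh1*, a collagen chaperone, opened from 4.10 to 6.44 with overlapping counts, and its fold change of 1.40, which was not called, was 0.21 without WT replicate 2. So of the 4 largest gains in this list, 1 gene was above the WT values, 1 was below them and 2 overlapped with them. The metallothioneins *Mt2* and *Mt1*, 6445 bp apart, opened from 5.53 to 8.04 and from 6.57 to 8.38, and neither exceeded a count of 11.8 in any library.

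In the lists of T cell identity, the opened promoters had median starts of 9.38 to 10.29, against 8.16 for all opened promoter peaks. Of 20 progenitor transcription factors, 4 had an opened promoter (20%), with a median start of 10.23 and gain of 0.43. *Lef1*, which acts with TCF1 in T progenitors, rose from 10.79 to 11.23 in accessibility and stood at 105496, 109084 and 95133 in WT and 147801, 135057 and 120504 in the UTX TCD libraries. All UTX TCD libraries were above WT, and the difference (0.38 ± 0.08, adjusted p = 0.00517) was below the fold limit. *Foxp1*, which restrains T cell activation, was alike (0.33 ± 0.04, adjusted p = 0.000417), *Satb1* overlapped between groups (119973 to 123937 against 121901 to 129479), and *Hhex*, with the largest gain of the 4 (0.99), was too low to be tested. None of the 3 tested was called, against 3 higher and 1 lower of 17 in the list.

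Of 31 effector transcription factors and cytotoxic genes, 8 (25.8%) had an opened promoter, with a median start of 9.38 and gain of 0.43, and 3 were higher and none lower, against 5 higher and 7 lower of 29 in the list. *Tbx21*, the T-bet factor of effector cells, gained 0.52 and went from 646, 877 and 589 to 1404, 1420 and 1872 (1.16 ± 0.16, adjusted p = 0.00057). *Bhlhe40*, a factor of cytokine production, gained 0.36 and went from 85.2, 210 and 106 to 265, 313 and 461 (1.44 ± 0.33, adjusted p = 0.00778). Neither overlapped between the groups. *Irf4* (2046, 3366 and 2097 against 3541, 3440 and 4267) was the other one called (0.62, adjusted p = 0.0212), and its call was lost without WT replicate 1 (0.49), WT replicate 3 (0.51) or UTX TCD replicate 3 (0.52), and with DESeq2 (0.59, adjusted p = 0.0658). *Ifng*, the effector cytokine, opened from 8.08 to 8.63 and had counts of 10.9, 20.7 and 32.8 in WT and 6.75, 10.4 and 31.7 in the UTX TCD libraries, which overlapped (-0.53, and -1.13 without UTX TCD replicate 3, neither called). The chemokine receptor *Cxcr3* opened from 7.76 to 8.65 and was not called (0.31 ± 0.13, adjusted p = 0.0809).

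In the T cell receptor complex and its signalling, 7 of 46 genes (15.2%) had an opened promoter, with a median start of 10.29, and 1 was called lower and none higher, while over the list 4 of 46 were lower. The largest gain was that of *Lck* (2.79) given above. The gene called lower was *Icos*, a costimulatory receptor, which opened from 10.29 to 10.72 and fell from 8687, 9532 and 8130 to 5605, 5392 and 4859 (-0.73 ± 0.07, adjusted p = 7.72e-05). *Zap70*, the kinase downstream of *Lck*, opened at its start (8.92 to 9.30) and at position -849 bp (6.29 to 7.15), and stood at 27914, 27303 and 29936 in WT and 32072, 33625 and 33692 in the UTX TCD libraries (0.22 ± 0.05), below the fold limit. *Ptprc* (CD45) gained 0.39, and its counts overlapped.

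Housekeeping groups had few opened promoters. Ribosomal protein genes had 4 of 82 (4.88%), with a median start of 10.50 and gain of 0.31. *Rps14* was called lower, from 254866, 236983 and 279417 to 154884, 167167 and 162595 (-0.67 ± 0.07, adjusted p = 8.34e-05), and *Rpl5*, *Rpl37a* and *Rps12* were below WT in all 3 libraries by less than the fold limit. *Rpl5* (-0.49) passed that limit without WT replicate 2 (-0.53) or without UTX TCD replicate 2 (-0.51). Over the list 20 of 81 ribosomal genes were lower and 2 higher. Nuclear genes of the respiratory chain had 3 of 83 (3.61%), and only *Cox6b2*, a cytochrome oxidase subunit known from testis, was called, from 158, 187 and 136 to 598, 543 and 547 (1.82 ± 0.14, adjusted p = 2.31e-05). The other members, *Ndufc2* (-0.39) and *Ndufs4* (-0.28), were below WT in all 3 libraries, and over the list 1 of 78 was higher and 6 were lower. Among histone methyltransferases, demethylases and Polycomb genes 3 of 98 (3.06%) had one, *Pcgf6*, *Kdm5a* and *Phc2*, and none was called, with gains of 0.25 to 0.30, while over the list 6 of 90 tested were higher and 2 lower.

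Of 56 cell cycle genes 6 (10.7%) had an opened promoter, and 4 of 5 tested were higher, against 28 higher and 1 lower of 52 in the list. *E2f8*, a factor of the S phase, went from 537, 610 and 452 to 1190, 1003 and 1418 (1.17 ± 0.15, adjusted p = 0.00033), and *Plk1*, a kinase of mitosis, from 750, 801 and 798 to 1248, 1166 and 1532 (0.74 ± 0.11, adjusted p = 0.000726), without overlap. The largest gain was at *Cdkn2a*, a cell cycle inhibitor and known Polycomb target (from 7.29, gain 1.71), with 2 reads in UTX TCD replicate 3 and none elsewhere, and *Cdkn1c*, another inhibitor, gained 0.49 with overlapping counts.

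Zinc finger genes of the Zfp series had an opened promoter in 39 of 400 cases (9.75%), and of 31 tested 11 were higher and none lower, against 29 higher and 5 lower of 360 in the list. *Zfp612* gained 1.79 and went from 127, 125 and 149 to 745, 744 and 1131 (2.67 ± 0.18, adjusted p = 9.1e-06). *Zfp608*, named after its values were seen, had the largest increase of them, from 56.5, 83.9 and 49.6 to 724, 836 and 668 (3.56, adjusted p = 3.99e-06) with a gain of 0.77. *Zfp941* (5.48 to 7.46) overlapped between the groups (0.88 ± 0.39) and was called without WT replicate 3 (1.19, adjusted p = 0.0462), and *Zfp9* and *Zfp819* were below a count of 5 in every library. Zinc finger genes are often close paralogs, so some of these reads may be shared.

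The sequence under the peaks was rich in CpG. The opened promoter peaks had a median GC content of 63.3% and a median ratio of observed to expected CpG of 0.711, against 61.2% and 0.623 for closed promoter peaks and 53.9% and 0.398 for windows of the same length at all RefSeq starts. By a GC content of at least 50% and a ratio of at least 0.6, 65.2% of the opened peaks were CpG islands, 52.1% of the closed ones and 36.2% of the windows. By gain the share was 65.1% up to 0.5, 56.6% from 0.5 to 1, 69% from 1 to 2 and 84.2% for the 177 peaks above 2. By start it was 82.7% for the 52 peaks at 4 or less, 64.8% from 4 to 6 and 59.8% from 6 to 8. It was 66.8% from 8 to 10 and 68.2% above 10, so neither order was steady. Of the peaks of developmental factors 88.6% were islands, but 16.7% of the 12 of interferon-stimulated genes and none of the 8 of the T cell receptor group. With a ratio of 0.75 and a GC content of 55%, the island shares were 40.9% of opened peaks, 31.3% of closed ones and 25.4% of windows. For the peaks with a gain above 2 the share was then 49.7%.

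Among the motifs, searched as fixed letters on both strands, GGGCGGG (KLF and SP factors) was the most frequent in promoter peaks, in 52.5% of opened and 52.1% of closed promoter peaks and 28.5% of all windows. CCAAT (NFY) was found in 37.0%, 42.0% and 43.0%. Motifs of T cell enhancers were rarer in opened than in closed promoter peaks, with TGTGGTT (RUNX) in 5.19% and 10.1%, against 6.42% of windows, and TGANTCA (AP-1) in 6.94% and 12.4%, against 9.41%. The ETS letters CCGGAAGT were in 3.27% of opened peaks, 4.40% of closed ones and 4.27% of windows. Within the opened peaks they were in 7.13% of those with a gain of up to 0.5 and in 0.565% (1 of 177) of those above 2, and AAGATGGCG (YY1) in 1.84% and none. By start the ETS letters were in 8.75% of peaks above 10, 3.45% from 8 to 10, 0.845% from 6 to 8 and 1.47% from 4 to 6. The YY1 letters were in 2% of peaks that started above 10 and in none from 4 to 6. Gain and start went together, so their parts cannot be told apart here. The YY1 letters were in 0.805% of all opened peaks, 2.33% of closed ones and 1.85% of windows. The other motifs are given for opened peaks, closed peaks and windows in turn. TATAAA was in 7.92%, 8.81% and 15.2%, CTTTGAT (TCF and LEF) in 3.71%, 3.89% and 4.45%, TTCNNNGAA (STAT) in 6.17%, 7.77% and 10.3%, and AGGGGGCGC (CTCF core) in 4.21%, 3.11% and 1.52%. CACGTG (E-box) was in 10.8%, 10.4% and 8.56%, TGACGTCA (CRE) in 2.60%, 3.11% and 1.93%, GCATGCGC (NRF1) in 3.00%, 2.59% and 2.92%, and TTCAGCACC (REST) in 0.850%, 0.259% and 0.597%. The letters follow base composition, and no binding was measured.

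By RNA, the 512 peaks of genes called higher had a median start of 8.73 and a median gain of 0.68, and 67.4% were islands. The 49 peaks of genes called lower had 8.62, 0.51 and 49.0%, and the 285 peaks of genes with at most 3 reads in every library had 6.22, 1.26 and 63.9%. For the 1394 peaks of all tested member genes these were 9.03, 0.50 and 65.4%.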

How the data were processed

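The members and gene lists were chosen with earlier results of these data known. ATAC-seq signal values are the deposited mean log2 concentrations per genotype, which the authors made with DiffBind, with peaks annotated by HOMER, and no value per library was given. The RNA-seq counts are the authors' deposited normalized counts, aligned with HISAT2 2.2.1 and divided by size factors. Whole reads were recovered from them for depth, the floor of 3 reads, every count of genes by reads, edgeR and DESeq2, and the limma test used the normalized counts. The deposited p-value and FDR columns and the log2 fold columns of both lists hold the authors' own comparisons and were not used, apart from a look that no FDR in the peak list exceeds 0.05. RNA was tested with limma 3.58.1 (R 4.3.3) on log2(normalized count + 1) with a mean-variance trend and Benjamini-Hochberg adjustment, with edgeR 4.0.16 and DESeq2 1.42.0 as alternatives. The code was tested on simulated data. Sequences were read with pyfaidx 0.9.0.4 from the RefSeq genome, in GRCm38/mm10, and strands from GENCODE. Of the 2235 peaks, 2130 were matched to RNA by symbol, 33 by transcript, 9 by synonym and 63 not, and 4 gene names had been turned into dates.

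Genes were named by rule. These are the 12 largest gains, the 5 highest starts, 5 peaks on each side of a gain of 0, the called genes without overlap between groups that rose most (8) and fell most (8), the 4 largest gains in each list, genes named for these assays in the paper, and the 5 genes with most peaks. Since 47 genes tied at 2 peaks, the number of peaks does not set which of them are given. The largest gain of each one given was well above the median gain of 0.71. Other genes were named after their values were seen, as said beside them. Some genes that this rule names are not reported here.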

Additional observations from a re-analysis of the deposited data

How the results depend on the processing

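The 500 genes called higher, 49 lower and 549 in all ranged, with 1 library left out, over 445 to 491, 34 to 53 and 480 to 544. A gain above 0.5 gave 316 higher, 25 lower and 341 in all of 681 tested. Without a fold limit 614 were higher, 123 lower and 737 called, against 20.2% higher and 20.5% lower over all genes tested. Libraries scaled to the same sum gave 534 and 43, with a median shift of 0.06 over all genes, edgeR 505 and 48, and DESeq2 479 and 41. The CpG island share of 65.2% was 40.9% with a ratio of 0.75 and a GC content of 55%, and 60.2% in RefSeq promoter windows. The cause of these changes was not tested.

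Among the named genes, the fold change turned direction only in genes that were not called, all but *Ctbp2* (0.22) near 0. The other member genes were not examined for this. With the same sum these were *Loxl4* (-0.02 to 0.04), *Ptprc* (-0.03 to 0.03) and *Pcgf6* (-0.01 to 0.05). With 1 library left out the ranges were -0.02 to 0.55 for *Ctbp2*, -0.08 to 0.05 for *Ccnt1*, -0.11 to 0.11 for *Loxl4*, -0.05 to 0.00 for *Ptprc*, -0.09 to 0.03 for *Pcgf6*, -0.01 to 0.08 for *Kdm5a* and 0.00 to 0.11 for *Ifi27*.

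With replicate number as a replicate block 482 genes were higher, 42 lower and 524 called. Libraries of the same number correlated at 0.305, -0.200 and 0.0897, and not every library correlated best with its own number. The deviations were taken within each group of 3 libraries, which constrains these values, so they cannot decide whether the numbers are pairs. The labels do not state this either.

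Peak values were means per genotype, so their spread between mice is unknown. Unchanged promoters were not analysed here. Annotation and strand of the RNA-seq are not stated, so overlapping genes and paralogs are uncertain. Each genotype had 3 libraries of sorted cells in bulk.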
